A study of Drosophila melanogaster with 18 samples.

Results

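Serpins are protease inhibitors that act as suicide substrates: the target serine protease cleaves an exposed reactive loop of the serpin and is trapped on it. In Drosophila, secreted serpins restrain the serine protease cascades that activate the Toll ligand Spätzle and that start melanization, the deposition of melanin at wounds and around parasites. The 9 genes described here are Spn27A, Spn42Da, Spn42Db, Spn43Aa, Spn43Ab, Spn55B, Spn77Ba, Spn88Ea and Spn100A, taken by symbol from a count table of 17373 genes and named after their cytological positions. All 9 had a row in the table, and all 9 were among the 8585 genes that passed the filter on low counts. Another 20 serpin genes had a row, and 5 of those passed.

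RNA was measured in whole wing imaginal discs, sacs of larval epithelium that become the adult wing and part of the thorax, dissected by hand from wandering larvae of the last instar. All discs carried clones induced by Ubx-FLP, a recombinase expressed from Ubx regulatory sequences, on the FRT82B chromosome in a Minute background, in which cells outside the clones grow slowly. The 3 groups were control FRT82B clones on day 5, clones of the warts allele wts149 on day 5 and clones of wts149 on day 9. Warts (wts) is the Hippo pathway kinase that holds back the growth activator Yorkie. Each group had 3 replicates, each the sum of its a and b libraries, and 14201662 to 22263073 counts stood behind a replicate. The labels do not say what separates replicates, so a p-value measures the spread between samples and no more, and that spread may be technical. The controls are labelled day 5, but their description text reads d5.d6, so an equal age is not established, and no control discs of day 9 were analysed here. The sources used here give neither the lesion of wts149 nor the mutant share of each disc. The wts transcript read 101 ± 5.38 CPM in control, 202 ± 14.6 in wts day 5 and 269 ± 10.9 in wts day 9 discs (mean ± SD, n = 3), which does not check the genotype.

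Levels below are CPM, which corrects counts for library size with edgeR's TMM factors, listed for replicates 1, 2 and 3 of a group in that order. Log2 fold changes carry their SE, and calls are at an adjusted p under 0.05 (edgeR quasi-likelihood test, Benjamini-Hochberg over all genes tested). Any 2 of the 3 comparisons share 1 group of samples, so their values are set side by side and not correlated. In whole discs, fewer cells of a type and less RNA per cell cannot be told apart. The summed level of 8 disc epithelium markers ran from 3621 to 4047 CPM over the 9 replicates, and all 8 were detected in every group. Single markers were less steady than the sum. On day 5, 3 were lower than control, ct (-0.92 ± 0.15), vg (-0.47 ± 0.09) and Fas3 (-0.26 ± 0.08), and 0 were higher. On day 9 the same 3 were lower, with vg at -0.89 ± 0.09, and 1 was higher, nub (0.29 ± 0.07). Between the wts groups 1 was lower on day 9, vg (-0.42 ± 0.09), and 0 were higher.

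Of the 9 serpin genes, 1 was higher and 2 were lower in wts day 5 discs than in controls, Spn77Ba on one side and Spn43Aa and Spn100A on the other. The shares of all tested genes called in that comparison were 9.64% higher and 8.88% lower. In wts day 9 discs 3 genes were higher than in controls (Spn27A, Spn55B and Spn77Ba) and 0 lower, against 15.3% and 14.3% of all genes. Between wts day 9 and wts day 5 discs 5 genes were higher on day 9 (Spn43Aa, Spn55B, Spn77Ba, Spn88Ea and Spn100A) and 0 lower, against 5.44% and 2.9% of all genes. The 0 lower calls were also 0 at an unadjusted p under 0.05 and 0 with DESeq2 and limma-voom, in both comparisons of the wts day 9 discs. The exception against control was the fit without control replicate 2, which called Spn43Aa lower (-1.24, edgeR adjusted p = 0.00269). The median log2 fold change of the 9 genes was -0.075, 0.19 and 0.40 in the 3 comparisons, beside medians of -0.0018, -0.014 and -0.015 over all genes. Replicates of the groups did not overlap for 6, 4 and 6 of the 9 genes, where 37.1%, 44.5% and 35.5% of all tested genes did not. The count of 5 on day 9 against day 5 depended on single replicates: it was 2, 1 and 1 when wts day 5 replicate 1, 2 or 3 was left out. Leaving out wts day 9 replicate 1 gave 3, leaving out wts day 9 replicate 3 gave 2, and limma-voom called 3.

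**Figure D1:**
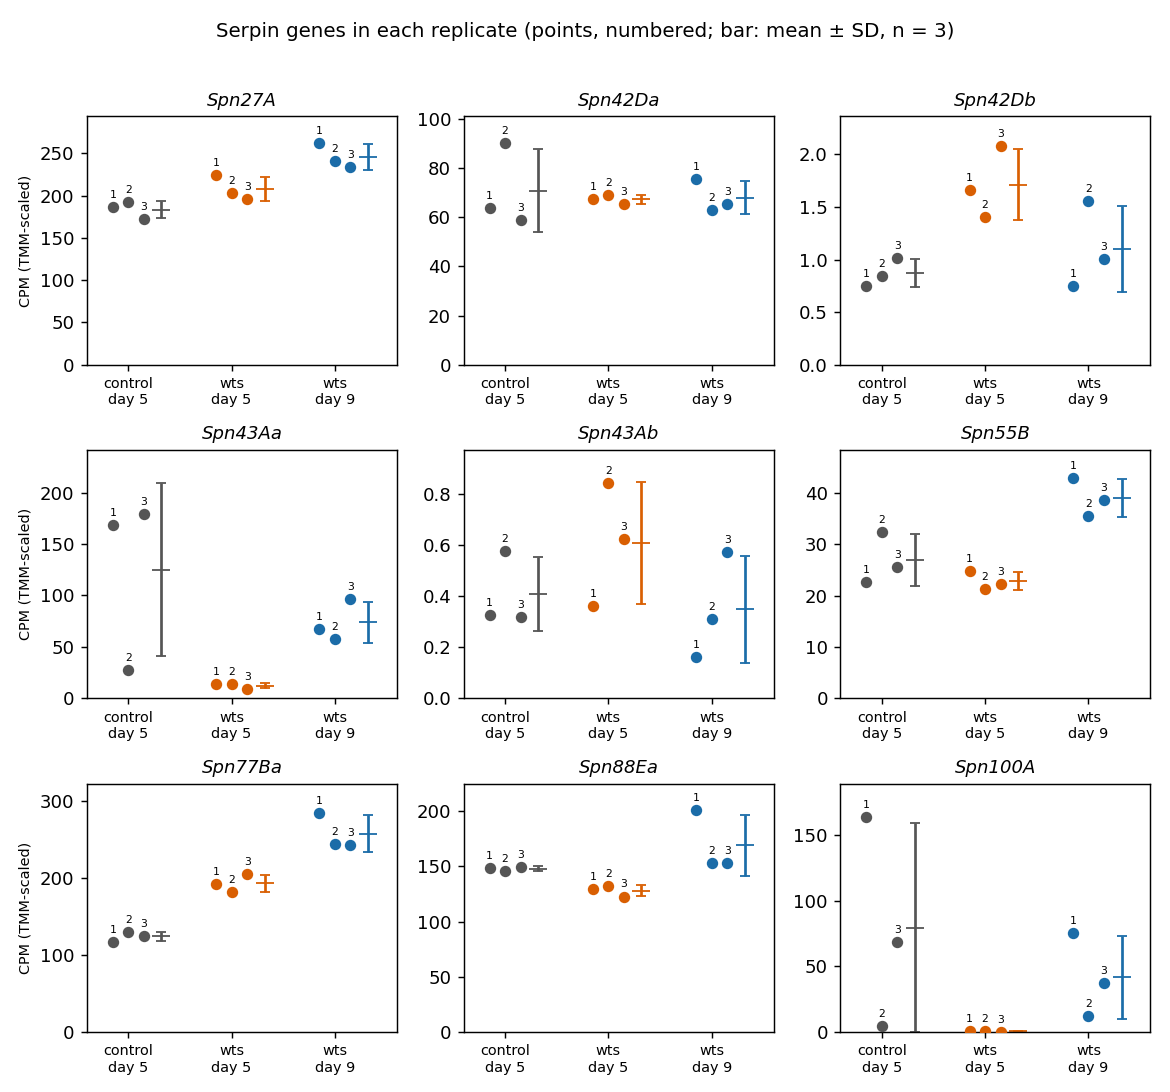
CPM of each serpin gene (vertical axis from 0, TMM-scaled) in the 3 replicates of each group (numbered points), with mean ± SD beside them (n = 3; the SD bar of Spn100A in controls stops at 0). Spn77Ba separates all 3 groups, while Spn43Aa and Spn100A spread widely in controls, where replicate 2 is at 27.9 and 4.27 CPM, and are lowest in wts day 5 discs.

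Spn77Ba, which restrains melanization in the tracheal system, rose in wts discs on day 5 and was higher again on day 9. It read 117, 130 and 125 CPM in control discs, 193, 182 and 205 CPM in wts day 5 discs and 285, 244 and 244 CPM in wts day 9 discs. No 2 groups overlapped, and the highest control lay below the lowest wts replicate. The increase over control was 0.64 ± 0.08 on the log2 scale on day 5 (1.56-fold, adjusted p = 0.000904) and 1.05 ± 0.08 on day 9 (2.08-fold, adjusted p = 2.968e-05), both by edgeR. Both calls held in all 19 alternatives. The difference between the wts groups was 0.42 ± 0.08 (edgeR adjusted p = 0.0158), and it lost its call without wts day 5 replicate 2 (adjusted p = 0.0587). Tracheal tissue is attached to the wing disc, and the summed level of 8 tracheal markers moved with Spn77Ba between groups. It ran from 2449 to 2813 CPM in controls, 3555 to 4044 in wts day 5 and 4154 to 4634 in wts day 9 discs. Within groups the orders differed in part. The sum was highest in replicate 1 of each group, where Spn77Ba was lowest in controls and highest on day 9. In wts day 5 replicate 3 the sum was lowest and Spn77Ba highest. Much of that sum is uif and verm, at means of 1413 and 1012 CPM in wts day 5 discs. The means of btl were 14.0, 7.53 and 9.67 CPM in control, wts day 5 and wts day 9 discs, and those of dys 20.8, 8.85 and 14.5. Of the 8 markers 3 were higher in wts day 5 discs, serp and uif among them, and 2 were lower, dys and btl, which encodes the tracheal FGF receptor. On day 9, 4 were higher than in controls, uif (0.86 ± 0.10 on the log2 scale), serp (0.79 ± 0.10), Gasp (0.98 ± 0.16) and verm (0.84 ± 0.15). The 1 lower marker was btl (-0.53 ± 0.13, edgeR adjusted p = 0.0156). The tracheal fate regulator trh differed by 0.15 ± 0.08 (day 5) and 0.07 ± 0.08 (day 9) on the log2 scale without a call, and no tracheal marker was at 0. The part of tracheal tissue in the Spn77Ba result was not tested. An antisense gene, CR43875, overlaps Spn77Ba exons in the annotation, but it stood at 0.16 to 0.64 CPM.

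Spn27A blocks the protease Easter in dorsoventral patterning of the embryo and limits the prophenoloxidase cascade in haemolymph. It had a smaller difference in the same groups. Its levels were 186, 192 and 172 CPM in controls, 224, 203 and 196 CPM in wts day 5 discs and 262, 241 and 233 CPM in wts day 9 discs. The groups did not overlap in any comparison, although the gaps were narrow. Day 9 discs exceeded control by 0.42 ± 0.07 on the log2 scale (1.34-fold, edgeR adjusted p = 0.00296), a call that held in all 19 alternatives. The day 5 difference of 0.18 ± 0.07 missed the threshold (edgeR adjusted p = 0.122) in every alternative. The step between the wts groups was 0.24 ± 0.07 (edgeR adjusted p = 0.0706), and DESeq2 called it at an adjusted p of 0.0201. Across the 9 replicates the log2 CPM of Spn27A and Spn77Ba correlated at r = 0.91, the second highest of the 36 pairs among the 9 genes, with points that share library and group.

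Spn88Ea restrains Toll signalling and is needed for wing expansion in the adult. In controls it was the steadiest of the 9 genes, at 149, 146 and 149 CPM, with an SD of 1.35% of the mean. It read 129, 132 and 123 CPM in wts day 5 discs, below all controls, and 201, 153 and 153 CPM in wts day 9 discs, above all controls. The 2 differences from control were small, -0.21 ± 0.10 on day 5 (edgeR adjusted p = 0.161) and 0.19 ± 0.10 on day 9 (edgeR adjusted p = 0.167), and neither was called. The day 5 difference was called when the 2 groups were fitted alone (adjusted p = 0.0395) and without wts day 9 replicate 1 (adjusted p = 0.0292). From day 5 to day 9 of wts discs the gene was higher by 0.40 ± 0.10 (1.32-fold, edgeR adjusted p = 0.0363). That call ended when control replicate 1, any wts day 5 replicate or wts day 9 replicate 3 was left out (adjusted p from 0.0550 to 0.121). The gene CG42542 on the opposite strand overlaps its exons and read 34.4 to 47.7 CPM. The sources used here do not say whether counting used the strand, so reads of the pair may not be separable.

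Spn100A showed the widest range of the 9 genes. Controls read 164, 4.27 and 68.6 CPM, wts day 5 discs 0.466, 0.281 and 0.156 CPM, and wts day 9 discs 74.98, 12.3 and 37.1 CPM. All wts day 5 replicates lay below every other replicate, and control replicate 2 was 38.4 times lower than control replicate 1. The 3 wts day 5 replicates held 16 counts in all, against 4879 in the controls and 2416 in wts day 9 discs. The fall on day 5 was -7.99 ± 1.53 on the log2 scale (262-fold between the means, edgeR adjusted p = 0.00702), and the level on day 9 was higher by 7.06 ± 1.54 (138-fold, edgeR adjusted p = 0.0245). On day 9 the difference from control was -0.93 ± 0.92 (edgeR adjusted p = 0.476), and it turned to 0.20 without control replicate 1. With limma-voom neither of the first 2 differences was called (adjusted p = 0.447 and 0.521). The day 5 value was -6.86 without control replicate 1 and -8.56 without control replicate 2, and its call held in every fit that left out a replicate. The day 9 against day 5 call ended when any wts day 5 replicate, or replicate 1 or 3 of wts day 9, was left out (adjusted p from 0.056 to 0.106), with 6.32 without wts day 9 replicate 1.

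Spn43Aa, like Spn100A, was lowest in wts day 5 discs. It read 169, 27.9 and 179 CPM in controls, 13.4, 13.3 and 9.35 CPM in wts day 5 discs and 66.9, 58.0 and 96.6 CPM in wts day 9 discs. Again all wts day 5 replicates were below all others, and control replicate 2 lay under every wts day 9 replicate. The fall on day 5 was -3.38 ± 0.59 on the log2 scale (10.4-fold, edgeR adjusted p = 0.00465) and held in all 19 alternatives. The level on day 9 exceeded day 5 by 2.62 ± 0.58 (6.13-fold, edgeR adjusted p = 0.0261), a call lost with limma-voom (adjusted p = 0.096) and without any 1 of the 6 wts replicates (adjusted p from 0.0526 to 0.110). Day 9 discs differed from control by -0.76 ± 0.52 (edgeR adjusted p = 0.299). Without control replicate 2 this became -1.24, at an adjusted p of 0.00269. CG12828 overlaps its exons on the opposite strand and is listed at 0 in every library.

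Spn100A and Spn43Aa were the closest pair of the 9 genes, with r = 0.97 over the 9 replicates. Over the 6412 genes whose mean reached 10 CPM in 1 or more groups, the 3 whose log2 CPM were most like Spn100A were ImpE3 (r = 0.989), St2 (0.983) and wbl (0.977), and the same 3 led for Spn43Aa (0.989, 0.978 and 0.980). These values come from the 9 replicates that also showed the group differences. ImpE3 is induced in discs by ecdysone, the steroid hormone of moulting, and wbl encodes a chaperone of the secretory pathway needed for dorsoventral patterning. ImpE3 read 82.9, 9.95 and 86.1 CPM in controls, 3.89, 3.37 and 1.97 in wts day 5 discs and 45.8, 23.6 and 34.8 in wts day 9 discs. Of 15 tested cuticle and ecdysone-linked genes of a list of 16, 1 was higher and 9 lower in wts day 5 discs than in controls (edgeR), and 7 were higher on day 9 than on day 5. The day 5 count of 10 was 5 without wts day 5 replicate 3 and 4 with limma-voom, while the count of 7 was 3, 0 and 0 on leaving out wts day 5 replicate 1, 2 or 3, and 0, 3 and 0 on leaving out those of wts day 9. Hr4 and Blimp-1, transcription regulators of the ecdysone response, were also low in control replicate 2, at 2.62 and 0.578 CPM beside 157 to 188 and 105 to 110 CPM in the other 2 controls. ImpE1, ImpE2 and Eip78C were lowest in that control too, but the list was not uniform. Lcp1, Lcp2, Lcp3 and Lcp4 were highest there, at 80.1, 62.5, 89.2 and 137 CPM. In the controls br read 2037, 2033 and 2476 CPM and ftz-f1 51.2, 49.2 and 34.9 CPM. The part of hormone stage in the 2 serpin results was not tested.

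**Figure D2:**
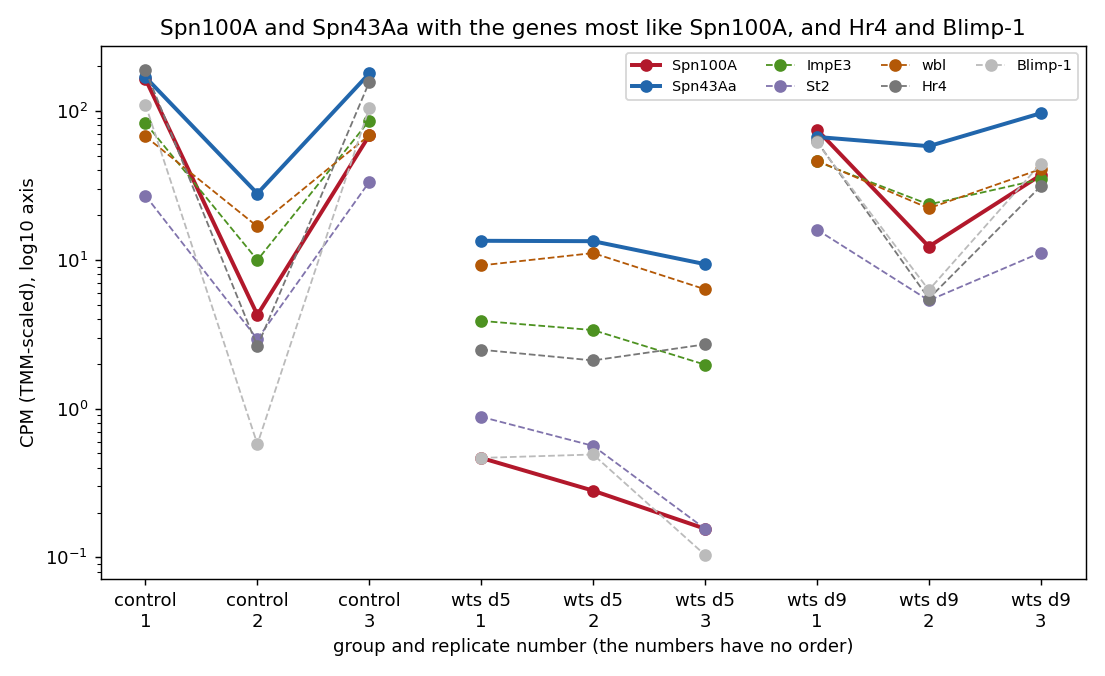
CPM on a log10 axis of Spn100A and Spn43Aa (solid) and of ImpE3, St2, wbl, Hr4 and Blimp-1 (dashed) in each replicate. Lines only join the points of a gene within a group, and all 7 genes are low in control replicate 2 and in the 3 wts day 5 replicates.

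Marker levels of other tissues were set beside these 2 genes, since fat body and haemocytes secrete serpins into the haemolymph and the disc carries myoblasts. Control replicate 1, with the highest Spn100A, had a summed fat body marker level of 16.8 CPM over 10 genes, the lowest of the controls (the others read 148 and 185), and a salivary gland marker level of 3.19 CPM over 8 genes (others 252 and 5286). Control replicate 3, with the highest Spn43Aa (179 CPM, beside 169 in replicate 1), had the highest of both sums, 185 and 5286 CPM. Summed fat body markers ran from 6.95 to 32.4 CPM in wts day 5 and from 14.99 to 299 in wts day 9 discs, where Yp1 was at 0. Of 7 fat body markers tested, 2 were lower than control on day 5 and 1 on day 9, with 0 higher (edgeR). Their median log2 fold change was -2.57 on day 5 and 2.73 between the wts groups. Between the wts groups 0 were called, and 5 were higher at an unadjusted p under 0.05. Salivary gland markers were at 0.572 CPM or less in wts day 5 and 1.81 or less in wts day 9 discs, where ng1 was at 0 in both groups and ng3 on day 9. Summed haemocyte markers, 12 genes, ran from 290 to 348 CPM in controls, 208 to 258 in wts day 5 and 269 to 426 in wts day 9 discs, and NimC2 was at 0 in wts day 5 discs. Much of that sum is Cg25C, vkg and crq, at means of 100, 71.3 and 44.8 CPM in wts day 5 discs, and several markers more specific to haemocytes moved in the direction of the 2 serpins. Of 11 tested, 6 were higher on day 9 than on day 5 of wts discs, among them eater (log2 3.02 ± 0.62), NimC1 (2.78 ± 0.64), Pxn (2.01 ± 0.36) and Hml (1.65 ± 0.37), and Pxn was lower than control on day 5 (-1.22 ± 0.36, edgeR adjusted p = 0.0418). Within the controls the order differed: eater read 0.562, 2.40 and 4.64 CPM and Pxn 9.28, 17.7 and 29.6, lowest in replicate 1. The count of 6 was 2, 1 and 0 on leaving out wts day 5 replicate 1, 2 or 3 and 1, 1 and 2 on leaving out those of wts day 9. The single day 5 call was lost without control replicate 3, any wts day 5 replicate or wts day 9 replicate 2 or 3, and 4 markers were lower without control replicate 1.

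Some myoblast markers also moved with Spn100A and Spn43Aa between groups. Of 7 markers 4 were lower in wts day 5 discs than in controls and 3 were higher on day 9 than on day 5 (edgeR), with Ama at -1.02 ± 0.13 and then 0.82 ± 0.13, and zfh1 at -0.79 ± 0.11 and then 0.50 ± 0.11 on the log2 scale. Others did not follow both steps: kirre was at -0.87 ± 0.18 and then 0.04 ± 0.18, Mef2 at -0.02 ± 0.06 and then 0.32 ± 0.06. For htl the values were -0.18 ± 0.11 and -0.08 ± 0.11, without a call. The summed level of the 7 markers was 396 to 413 CPM in controls, replicate 2 included, 249 to 283 in wts day 5 and 351 to 398 in wts day 9 discs, with no marker at 0. The count of 3 was 1 on leaving out replicate 2 or 3 of wts day 5, or replicate 1 or 3 of wts day 9. Muscle markers, summed over 10 genes, stood at 1909 CPM in control replicate 2, the control low for both serpins, against 1118 and 1105 in replicates 1 and 3, and at 991 to 1108 in wts day 5 and 911 to 951 in wts day 9 discs, again with no marker at 0. Much of that sum is Tm1, at means of 876, 918.5 and 895 CPM in control, wts day 5 and wts day 9 discs and without a call. Other muscle markers fell further than the sum, as Mhc had means of 63.3, 27.6 and 1.82 CPM and Mlc1 32.9, 5.00 and 0.104. Of the 10 muscle markers, 7 were lower than control on day 5, 9 on day 9, and 4 were lower on day 9 than on day 5. The day 5 count was 4 on leaving out control replicate 2, and 2 and 1 on leaving out wts day 5 replicate 1 or 3. The count of 4 between the wts groups was 7 without control replicate 2, 2, 1 and 1 when wts day 5 replicate 1, 2 or 3 was left out and 2, 1 and 1 on leaving out those of wts day 9, and limma-voom gave 4 muscle calls on day 5 and 1 between the wts groups. The part of haemocytes, fat body, salivary gland, myoblasts and muscle in the serpin results was not tested.

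Spn100A is also linked to wts: in the annotation 9 protein-coding genes lie between them on 3R, and Spn88Ea lies farther away on the same arm. Both are on the arm made homozygous in the clones, so other differences of the wts149 chromosome cannot be told apart from wts in the comparisons with control.

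Spn55B was higher in wts day 9 discs than in either other group. It read 22.7, 32.4 and 25.6 CPM in controls, 24.8, 21.3 and 22.2 in wts day 5 discs and 42.9, 35.5 and 38.7 in wts day 9 discs. The lowest day 9 replicate lay above the highest control, while controls and wts day 5 discs overlapped. The difference on day 9 was 0.53 ± 0.13 against control (1.45-fold, edgeR adjusted p = 0.0149), called in all 19 alternatives, and 0.77 ± 0.13 against day 5 (1.71-fold, edgeR adjusted p = 0.0113), lost without wts day 5 replicate 3 (adjusted p = 0.0619). On day 5 the difference from control was -0.24 ± 0.14 (edgeR adjusted p = 0.236). The genes most like Spn55B over the replicates were RhoGAP18B (r = 0.969), the syntaxin gene Syx7 (0.957) and the Polycomb group gene ph-p (0.953), and those most like Spn77Ba were CG14132 (0.988), rtet (0.987) and CG9932 (0.987).

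**Figure D3:**
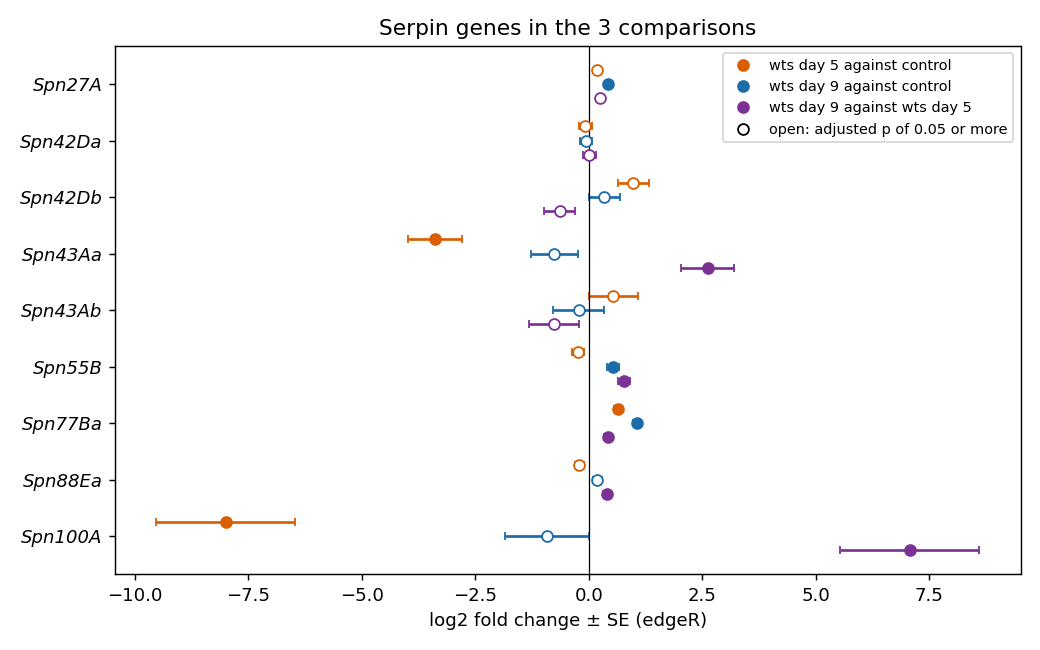
Log2 fold change ± SE (horizontal axis, edgeR) of each serpin gene in the 3 comparisons, with filled points for calls. Spn100A and Spn43Aa lie far to the left on day 5 and to the right from day 5 to day 9 of wts discs, while the called differences of Spn27A, Spn55B, Spn77Ba and Spn88Ea are between 0.40 and 1.05.

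Spn42Da produces many protein isoforms with different reactive loops, some of which inhibit furin-type proprotein convertases, and the annotation gives it 11 transcripts that a gene count adds together. It read 63.8, 90.2 and 58.8 CPM in controls, 67.6, 69.2 and 65.4 in wts day 5 discs and 75.7, 63.1 and 65.3 in wts day 9 discs, and the groups overlapped throughout. Its differences were -0.075 ± 0.14, -0.061 ± 0.14 and 0.014 ± 0.14 on the log2 scale (edgeR adjusted p = 0.743, 0.775 and 0.961). The sign against control turned without control replicate 2, to 0.13 on day 5 and 0.14 on day 9, with no call in any alternative. The furin genes Fur1 and Fur2, at 119 to 142 and 231 to 309 CPM, had 0 calls with edgeR, DESeq2 and limma-voom in every comparison. At an unadjusted p under 0.05 there were 0 on day 5 and 1 in each comparison of the day 9 discs. The other convertase gene, amon, had 16 counts in all and was not tested.

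Spn42Db and Spn43Ab were barely measured. Spn42Db, the neighbour of Spn42Da, read 0.749, 0.844 and 1.01 CPM in controls, 1.66, 1.40 and 2.08 in wts day 5 discs and 0.747, 1.55 and 1.01 in wts day 9 discs, from 54, 92 and 65 counts per group. Its wts day 5 replicates lay above all controls, with a difference of 0.98 ± 0.35 that was not called (edgeR adjusted p = 0.0743; 0.0638 to 0.231 over 18 alternatives). Spn43Ab had 26, 31 and 21 counts per group, 0.16 to 0.843 CPM over the replicates, with overlap in every comparison (edgeR adjusted p = 0.509, 0.794 and 0.412). Differences in Spn43Ab were not detectable at this depth. Spn42Da, Spn42Db and Spn42Dc lie side by side on 2R, and whether reads were shared between similar copies was not assessed. The antisense gene CR44169, which overlaps exons of Spn42Da and Spn42Db, is listed at 0 in every library.

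Per kb of annotated exon (Ensembl release 115), the order of the 9 genes changed between groups. In controls Spn88Ea (97.3 CPM per kb), Spn43Aa (96.7) and Spn27A (80.3) led, and the range of Spn43Aa overlapped both of the others. Spn77Ba (57.4), Spn100A (38.7), Spn42Da (26.6) and Spn55B (20.8) followed, each overlapping the next, and Spn42Db (0.585) and Spn43Ab (0.307) were apart at the bottom. In wts day 5 discs Spn27A (90.9), Spn77Ba (89.4) and Spn88Ea (84.1) led, each overlapping the next, then Spn42Da (25.3), Spn55B (17.6) and Spn43Aa (9.30), with Spn100A last (0.148). In wts day 9 discs Spn77Ba (119), Spn88Ea (111) and Spn27A (108) led with overlap, and Spn43Aa (57.1) came next, apart from Spn27A above and Spn55B (30.1) below. Per kb of coding sequence the control order changed at the top, to Spn27A (137), Spn88Ea (115.5) and Spn43Aa (107). Spn77Ba made up 11.2% to 18.6% of the summed level of the 9 genes in controls, 26.8% to 30.4% in wts day 5 and 24.3% to 26.8% in wts day 9 discs. The summed level was 419 ± 85.1 CPM per kb in controls, 318 ± 8.82 in wts day 5 and 472 ± 54.1 in wts day 9 discs. Without Spn100A and Spn43Aa it was 283 ± 14.3, 309 ± 7.78 and 395 ± 40.3 (SD, n = 3). The other 20 serpins together held 32.5 ± 3.13, 34.9 ± 2.04 and 39.3 ± 4.70 CPM per kb.

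**Figure D4:**
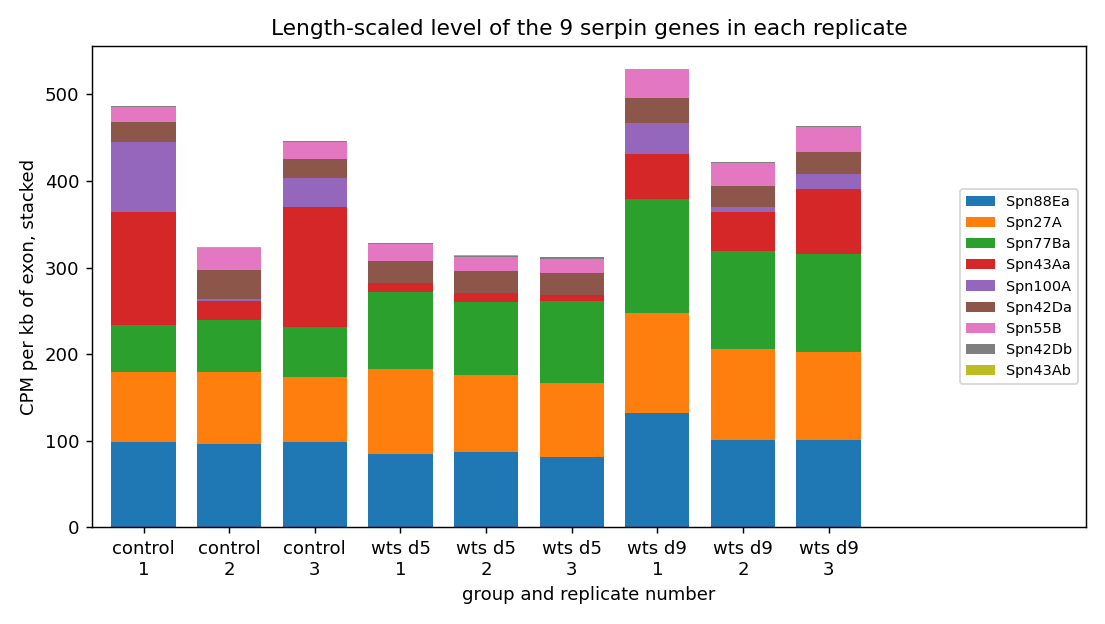
CPM per kb of exon of the 9 serpin genes, stacked for each replicate (vertical axis from 0). Spn43Aa and Spn100A are broad bands in control replicates 1 and 3 and narrow in control replicate 2 and the wts day 5 discs, while Spn77Ba is broader in all 6 wts replicates than in the controls.

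Among the other serpins, Spn42Dc and Spn42De were higher in wts discs in both comparisons with control. Spn42Dc, beside Spn42Db, read 4.22, 5.29 and 2.99 CPM in controls, 10.9, 8.78 and 11.3 in wts day 5 and 5.65, 8.39 and 8.05 in wts day 9 discs, a log2 difference of 1.30 ± 0.23 on day 5 and 0.82 ± 0.23 on day 9 (edgeR adjusted p = 0.00522 and 0.0256). Spn42De differed by 0.82 ± 0.14 and 0.77 ± 0.14 (edgeR adjusted p = 0.00407 and 0.00334). Thus 2 of 5 tested genes were higher and 0 lower in each of these comparisons, and 0 of 5 were called between the wts groups. The day 9 count against control was 1 when control replicate 1, control replicate 3 or wts day 9 replicate 2 was left out, and Spn42Dc also lost its call without wts day 9 replicate 3 (adjusted p from 0.0568 to 0.0934). Lower genes were 0 at an unadjusted p under 0.05 and with DESeq2 and limma-voom, while between the wts groups 1 gene was higher at an unadjusted p, 1 with DESeq2 and 0 with limma-voom. The necrotic gene nec, a serpin that controls Toll in immunity, read 1.29 to 2.24 CPM and was not called.

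Serpin targets and related proteases were described from a list of 22 secreted or membrane serine proteases and protease homologues, 19 of them tested. On day 5, 1 was higher and 6 were lower than control, on day 9, 6 and 4, and between the wts groups 5 and 2. Easter, the embryonic target of Spn27A, fell in wts day 9 discs, from 9.56, 8.18 and 8.10 CPM in controls to 4.59, 2.17 and 2.35, by 1.51 ± 0.27 on the log2 scale (edgeR adjusted p = 0.00341), and SPE, which processes Spätzle, by 1.54 ± 0.32 (adjusted p = 0.00644). The protease homologue scarface (scaf) rose on day 9 from 81.7, 97.9 and 87.3 CPM in controls to 352, 388 and 414 (log2 2.11 ± 0.18, edgeR adjusted p = 5.587e-05), and CG31728 by 1.40 ± 0.10. On day 5 the transmembrane protease Notopleural (Np) fell by 2.27 ± 0.26 (adjusted p = 0.000644), spirit, a protease upstream of Toll, by 3.24 ± 0.77, grass by 0.81 ± 0.18 and Hayan, which acts in melanization, by 0.69 ± 0.15. SPE was also lower on day 5 (-1.22 ± 0.32, edgeR adjusted p = 0.0271), while Easter, scaf and CG31728 were not called. Against control on day 9, Np was lower (-0.86 ± 0.24, edgeR adjusted p = 0.0251) and grass higher (0.55 ± 0.17, edgeR adjusted p = 0.0383). Spirit and Hayan were not called there. Grass was higher on day 9 than on day 5 of wts discs by 1.36 ± 0.18, Np by 1.41 ± 0.26, scaf by 2.18 ± 0.18 and CG31728 by 1.39 ± 0.10. The spirit values resembled those of Spn100A in the low control replicate 2, with 8.99, 0.844 and 9.01 CPM in controls. The day 5 count of 7 was 2 without control replicate 1, and 2, 4 and 2 when wts day 5 replicate 1, 2 or 3 was left out. The day 9 count of 10 was 6 without control replicate 1, and that of 7 between the wts groups was 4 and 3 when wts day 5 replicate 2 or 3 was left out and 4 without wts day 9 replicate 3. Spirit and grass lost their day 5 calls when control replicate 1 or wts day 5 replicate 1 or 3 was left out (adjusted p from 0.0511 to 0.0869), Hayan without wts day 5 replicate 3 (0.0605), and Np its call between the wts groups without that replicate (0.0544). Limma-voom did not call spirit on day 5 (adjusted p = 0.195).

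The Toll pathway list held 22 genes, 13 of them tested. On day 5, 2 were higher and 2 lower than control, on day 9, 6 and 1, and 1 and 0 between the wts groups. Genes not tested included Drs, with 73 counts in all, and the immune-induced genes of the list, of which IM1 had the most counts, 13. Differences in those genes could not be read at this depth. The receptor gene Tl read 89.3, 74.1 and 77.5 CPM in controls, 108, 108 and 107 in wts day 5 and 118, 145 and 141 in wts day 9 discs, higher by 0.42 ± 0.09 and 0.75 ± 0.09 (edgeR adjusted p = 0.0119 and 0.000407). The ligand gene spz fell on day 5 by 2.59 ± 0.47 (adjusted p = 0.00556), from 3.56, 2.71 and 7.94 CPM to 0.725, 1.12 and 0.52. The recognition protein gene PGRP-SA rose by 2.27 ± 0.48 on day 5 and 3.23 ± 0.48 on day 9, and GNBP3 by 0.49 ± 0.10 on day 9, and limma-voom did not call PGRP-SA on day 5 (adjusted p = 0.0633). Pli, which encodes the Toll pathway regulator Pellino, fell by 0.47 ± 0.06 in both comparisons. The single call between the wts groups was GNBP3 (0.59 ± 0.10, edgeR adjusted p = 0.0105). That count was 2, 3 and 2 when control replicate 1, 2 or 3 was left out, 0 without wts day 5 replicate 3 (GNBP3 at an adjusted p of 0.0509) and 2 on leaving out wts day 9 replicate 1. DESeq2 called 3, and lower genes were 0 at an unadjusted p under 0.05 and with DESeq2 and limma-voom.

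Of 10 melanization genes 7 were tested, and 4 were lower than control on day 5 and 2 on day 9, with 0 higher. These were ebony (e), Ddc, black (b) and ple on day 5 and e and Ddc on day 9, enzymes of the dopamine and cuticle tanning pathways, and the prophenoloxidase genes PPO1, PPO2 and PPO3 were not among them. The controls themselves were spread, as ple read 40.0, 1.78 and 6.99 CPM and Ddc 9.56, 20.8 and 2.19. The day 5 count was 1 without control replicate 1, 0, 2 and 0 when wts day 5 replicate 1, 2 or 3 was left out and 2 without wts day 9 replicate 3. The day 9 count was 1 without control replicate 1 and without each of the 6 wts replicates, and limma-voom called 0 in either comparison. The day 9 call of Ddc held in 6 of 18 alternatives. Its log2 difference went from -1.94 to -1.065 without control replicate 2, its highest control (edgeR adjusted p = 0.153). With the other tools and at an unadjusted p, 0 were higher in these comparisons. Between the wts groups 0 were called, 1 was higher at an unadjusted p, DESeq2 called 1 as higher, limma-voom 0, and 1 was called without control replicate 1 or 2.

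**Figure D5:**
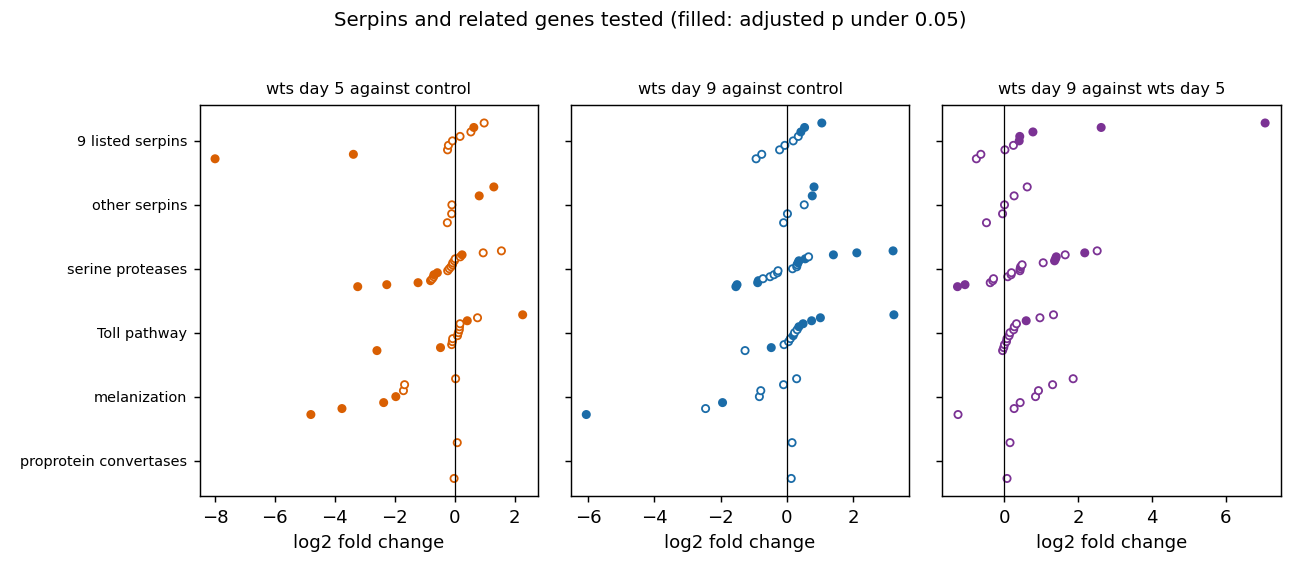
Log2 fold change (horizontal axis) of each tested gene of the 9 listed serpins and 5 related lists in the 3 comparisons, with filled points for an adjusted p under 0.05 (edgeR). The melanization calls all lie to the left of 0 in both comparisons with control, and the serpin calls lie on both sides on day 5 and to the right of 0 in the comparisons of wts day 9 discs.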

How the data were processed

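Total RNA of 18 wing disc libraries was read as whole-number counts per gene, which the authors deposited and which were made with HTSeq per the submitters' processing notes. Aligner, build, gene models, strand setting and HTSeq version go unnamed in the sources used here. The a and b libraries of a replicate differed about as counting noise does (chi-square over degrees of freedom 0.994 to 1.06, against 11.1 to 58.9 between replicates) and were summed, giving n = 3 per group. Library totals were 5611674 to 11193858.

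The 3 groups entered 1 fit in edgeR 4.0.16 (R 4.3.3, limma 3.58.1) after filterByExpr by group, with TMM factors of 0.972 to 1.04. The SE of a log2 fold change is its size over the square root of the F statistic. The pipeline was tested on simulated data. Alternatives were DESeq2 1.42.0, limma-voom, 2 scalings, 2 filters, a replicate block, single library letters, the 2 groups alone and leaving out each replicate.

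The 9 genes and all lists were chosen with earlier results of these data known. From the lists of other serpins, proteases, Toll and melanization genes, up to 4 called genes with the smallest adjusted p per comparison are named. From the cuticle, ecdysone-linked and cell type marker lists only some of such genes are named. Likeness is ranked for the 4 genes with the largest called changes. Nec, trh, Fur1, Fur2, amon, Drs, IM1, PPO1, PPO2, PPO3, Cg25C, vkg, crq, Hr4, Blimp-1, ImpE1, Lcp1, Lcp4, Tm1 and htl were named after their values were seen. Exon lengths, chromosome arms and neighbours come from Ensembl release 115 on BDGP6.54, which may not be the authors' annotation. The row named Spn is spinophilin, and was left out. Plots were drawn with matplotlib 3.10.9 in Python 3.11.15.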

Additional observations from a re-analysis of the deposited data

How the results depend on the processing

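Of 500 values of the 9 serpin genes under 19 alternatives, 466 kept their direction and their side of the threshold, 21 lost a call, 4 gained one and 9 turned sign. The genes called in the comparisons with control numbered 3 in both, and 3 to 4 when a replicate was left out. Between wts day 9 and wts day 5 discs the count was 5, 3 with limma-voom and 1 to 5 when a replicate was left out. The replicate numbers mark no pairs in the labels, and in the data replicates with equal numbers deviated together only weakly (r from -0.167 to 0.244, with 4 of 9 closest to their own number). With a replicate block the counts were 3, 3 and 5 as without it. With the block, e, Ddc, b and ple gave 2 calls on day 5 and e and Ddc 1 on day 9, and no other list count of serpins, proteases, Toll genes or convertases moved by over 1.5 times.

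The values that turned sign came from comparisons in which the gene had no call. When a replicate was left out, Spn42Da ran from -0.19 to 0.13 on day 5, from -0.18 to 0.14 on day 9 and from -0.067 to 0.067 between the wts groups, where it was -0.024 in the b libraries alone. Likewise Spn43Ab ran from -0.77 to 0.12 and Spn100A from -1.66 to 0.20 on day 9 against control. The cause was not tested.

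Over all genes 1590, 2543 and 716 were called in the 3 comparisons. Leaving out a replicate gave as few as 739, 1548 and 152, and DESeq2 called 1223 in the third. Spn42Db had no value under the filter of 10 CPM, and Spn43Ab had none there and in some other fits. Counts of 3 to 40 per replicate limit both genes.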
